A study of Mus musculus with 2 samples.

Results

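Messenger RNAs of 10 genes of the microRNA machinery were measured in mouse B cells with a retrovirus that supplied the microRNA miR-181b, against B cells with a control virus. They were the 4 Argonautes (Eif2c1 to Eif2c4, the older names of Ago1 to Ago4), Rnasen (Drosha), Dgcr8, Xpo5, Dicer1, Tarbp2 and Tnrc6a. The genes were chosen by name, and every array probe that carried one of these names was taken, without regard to its value. This gave 10 of 27671 gene names and 32 of 41174 probes. A probe is called measured below where both RNAs stood well above background on each array. All 10 genes had at least 1 measured probe, as had 17561 gene names in all, and 27 of the 32 probes were measured.

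MicroRNAs are cut from longer transcripts in a fixed order. In the nucleus the RNase III enzyme Drosha, held by its RNA-binding partner Dgcr8, cuts the primary transcript into a hairpin, which the carrier Exportin-5 (Xpo5) takes to the cytoplasm. There Dicer1, with its partner Tarbp2, removes the loop, and one strand of the duplex is loaded into an Argonaute protein, which pairs the seed of the microRNA with messenger RNAs and recruits the scaffold Tnrc6a (GW182) to silence them. Most microRNAs of a cell draw on this machinery, so its messenger RNAs are of interest where one microRNA is supplied from a vector.

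The study compared 2 RNAs. The miR-181b RNA came from primary spleen B cells of C57/BL6 mice with the miR181b-GFP vector, and the control RNA from such cells with the control-GFP vector. Each vector marks infected cells with GFP, and cells that glowed were sorted out 2 days after transduction. Cells of both kinds had been purified by removing CD43-positive cells, cultured in lipopolysaccharide at 25 µg/ml and interleukin-4 at 10 ng/ml, and exposed to viral supernatant for 20 h with 8 µg/ml polybrene, a polymer that aids infection. The labels give no age. They give 1 biological replicate per vector and 2 hybridisations with the dyes exchanged, so the spread between the arrays is technical and no test between the vectors was possible. On array 1 the miR-181b RNA carried Cy5, and on array 2 it carried Cy3.

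The sequences of the supplied microRNA and its family show the kind of RNA that the machinery handles. In RefSeq (GRCm38.p6) the mature miR-181b-5p is encoded at chr1:137966650-137966673 and at chr2:38853845-38853868, both on the plus strand. The capitals mark the seed, bases 2 to 8 from the 5′ end, which is the same in all 4 mature microRNAs of the family.
mmu-miR-181b-5p: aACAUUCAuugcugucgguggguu
mmu-miR-181a-5p: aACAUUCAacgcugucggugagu
mmu-miR-181c-5p: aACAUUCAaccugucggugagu
mmu-miR-181d-5p: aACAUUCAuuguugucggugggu

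Both mouse miR-181b genes encode a hairpin, from which Drosha and Dgcr8 trim the flanks beyond the mature arms before export by Xpo5 and cutting by Dicer1. The RefSeq stem-loops, flanks included, lie at chr1:137966639-137966718 and chr2:38853830-38853918 on the plus strand (GRCm38.p6), and the capitals mark the mature arms. The labels do not say which of them the vector carried. The stretch between the arms, which Dicer1 removes, is 16 bases long in Mir181b-1 and 14 in Mir181b-2.
Mir181b-1: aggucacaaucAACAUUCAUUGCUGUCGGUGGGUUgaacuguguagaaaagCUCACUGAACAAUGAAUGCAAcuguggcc
Mir181b-2: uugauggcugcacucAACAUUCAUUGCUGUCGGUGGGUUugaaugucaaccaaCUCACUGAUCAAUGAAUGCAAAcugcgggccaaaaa

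The arrays behaved as follows. Between 64.7% and 67.7% of the spots were well above background in an RNA. Of the B cell markers, 7 of 7 were measured, against 6 of 7 T cell, 6 of 6 macrophage and monocyte, 4 of 4 dendritic cell, 2 of 4 natural killer cell, 2 of 4 granulocyte and 0 of 3 erythroid markers. The B cell markers had a median log2 ratio of miR-181b over control of −0.33 on array 1 and 0.77 on array 2, with opposite signs for 6 of 7. Medians of both arrays' mean ratios were 0.19 for them, between −0.12 and 0.17 for the other measured marker lists, and their part in the results below was not tested. In bulk RNA, fewer cells of a type and less RNA per cell cannot be told apart. Over all measured genes the arrays' ratios correlated weakly, with a Pearson r of 0.03 and a Spearman rho of 0.09. Over the 17121 genes that were never saturated r was 0.22 and rho 0.14. Genes are not independent replicates, and no gene of the machinery was saturated.

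After loess normalisation within each array, none of the 10 genes differed between the miR-181b and control RNAs by 1.5-fold. Of the 10, 9 differed by less than 1.2-fold. Each gene is represented by its brightest measured probe. Its ratio is a log2 ratio of miR-181b over control, normalised within each array and averaged over both arrays, and signals are in arbitrary units that cannot be compared between probes. Eif2c2, Eif2c4 and Dicer1 were lower in miR-181b cells on both arrays, that is 3 of 10 genes, against 27.4% of all measured genes. Dgcr8 and Tarbp2 were higher on both, 2 of 10 against 24.5%. The other 5 had opposite signs on the 2 arrays, as had 8453 of 17561 genes. The shares of the machinery were thus near those of all genes.

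A mean at least 1.2-fold lower with the same sign on both arrays was reached by 1 of the 10 genes, Eif2c2, against 5.4% of all genes. None of the 10 was at least 1.2-fold higher, against 6.07%. At 1.5-fold no gene of the machinery was lower after loess, against 0.512% of all genes, or higher, against 0.82%. In place of loess, each array was also centred on the median of all its spots, dim ones included, apart from the array's own control spots. The median over the measured genes was then −0.21. Of all measured genes, 36.1% were at least 1.2-fold lower and 0.991% at least 1.2-fold higher, so the directions given here are those after loess. For scale, the dye contrast is the part of the ratio that turns with the dye, which holds dye bias and noise but no difference between the RNAs. Counted only where the ratios of the 2 arrays had opposite signs, it reached 1.2-fold in either direction for 8.66% of all genes and for 0 of the 10. Genes whose ratios had the same sign on both arrays were left out of that count, however large their dye contrast.

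The median ratio of the 10 genes was −0.07 (−0.08 on array 1 and −0.01 on array 2), against −0.01 over all measured genes (0.01 and −0.02). The median size of the mean ratio, whatever its sign, was 0.12 in the machinery and 0.10 over all genes, or 0.12 over the 10536 genes in the same range of brightness. The SD between the arrays had a median of 0.13 in the machinery and 0.13 over all genes. For a typical gene of this set the technical spread was therefore as large as the difference between the RNAs.

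**Figure D1:**
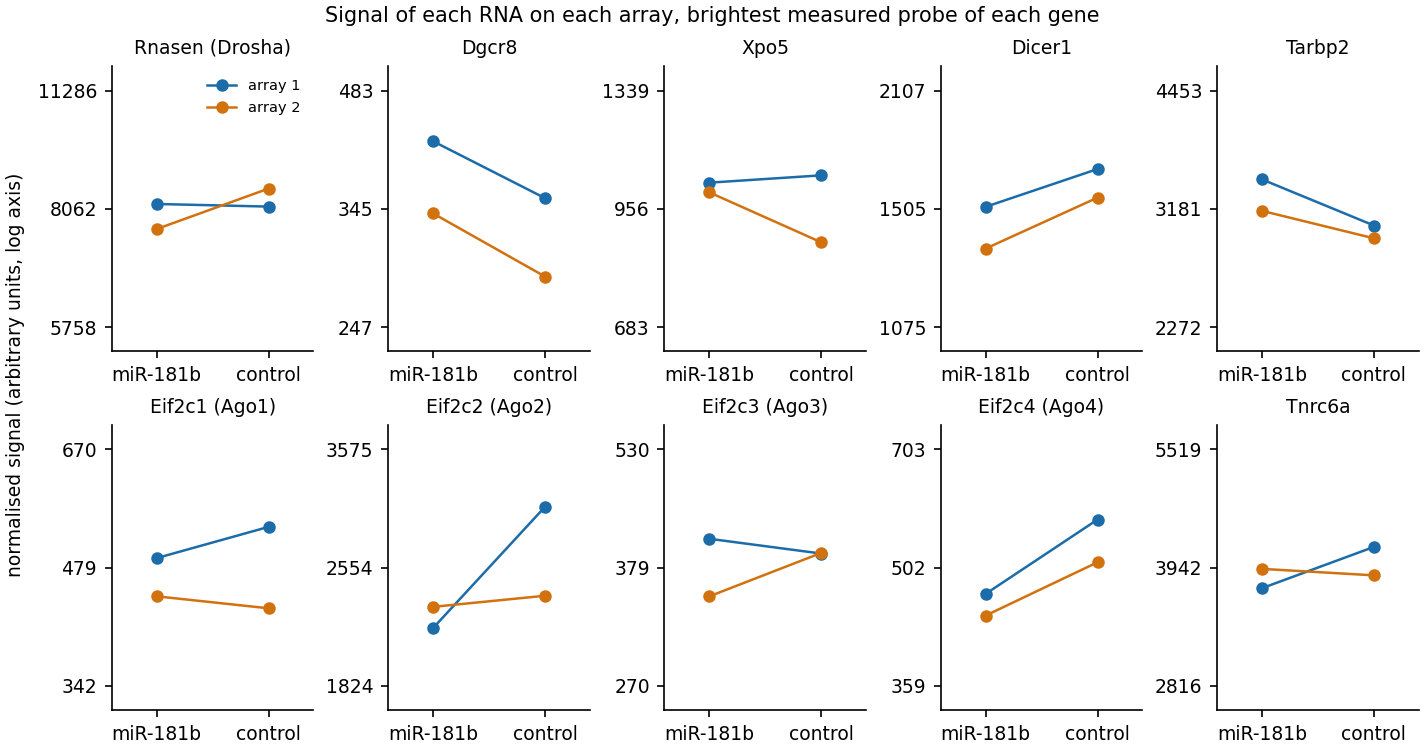
Normalised signal (arbitrary units, log axis) of the miR-181b RNA and the control RNA on array 1 (blue) and array 2 (orange) for the brightest measured probe of each of the 10 genes. A line joins both RNAs of one array. The 2 lines slope the same way for Dgcr8, Tarbp2, Dicer1, Eif2c2 and Eif2c4 and opposite ways for the other 5.

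The microprocessor, Drosha with Dgcr8, was measured first. The brightest Rnasen probe, A_51_P127186, had signals of 8174 in miR-181b and 8113 in control cells on array 1, and of 7610 in miR-181b and 8540 in control cells on array 2. The ratios were 0.01 and −0.17, with a mean of −0.08 ± 0.13 (SD of 2 arrays). Both RNAs thus gave the same signal on one array, and on the other the miR-181b RNA was slightly the dimmer. Another Rnasen probe, A_52_P578347, had ratios of −0.00 and 0.40, and the dimmest, A_51_P311227, had 0.04 and −0.15. No Rnasen probe kept its sign, so Drosha showed no direction in these RNAs.

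Dgcr8, which binds the primary transcript beside Drosha, was measured by 1 of its 3 probes, A_52_P22446. It had signals of 418 in miR-181b and 356 in control cells on array 1, and of 341 in miR-181b and 285 in control cells on array 2. The signal of the miR-181b RNA was the higher on both arrays, by 0.23 and 0.26 (mean 0.25 ± 0.02, SD of 2 arrays, 1.19-fold). This was the highest mean ratio of the 10 genes, and 91.5% of all measured genes had a lower one. The arrays differed by far less than the ratio itself, but the value rests on a single probe, since the other Dgcr8 probes were not well above background in either RNA.

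The hairpin carrier Xpo5 was measured by 2 of its 4 probes. The brighter, A_52_P201232, had signals of 1030 in miR-181b and 1052 in control cells on array 1, and of 1002 in miR-181b and 869 in control cells on array 2. Its ratios of −0.03 and 0.21 gave a mean of 0.09 ± 0.17. The other, A_51_P152191, had signals of 900 in miR-181b and 948 in control cells on array 1, and of 1024 in miR-181b and 592 in control cells on array 2. Its ratios of −0.08 and 0.79 gave the highest mean of the 27 measured probes (0.36) and the widest gap between the arrays (SD 0.61). Xpo5 was thus higher in miR-181b cells on array 2 only, by both probes. Of its 2 dim probes, A_52_P638867 was not well above background in either RNA, and A_52_P209328 was well above background on both arrays in miR-181b cells only. Its signals were 104 in miR-181b and 106 in control cells on array 1, and 87.0 in miR-181b and 79.3 in control cells on array 2, so it too had opposite signs on the arrays and no fold is given.

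Dicer1, the enzyme that cuts the hairpin in the cytoplasm, gave opposite answers by its 2 probes. The brighter, A_51_P483059, had signals of 1513 in miR-181b and 1686 in control cells on array 1, and of 1344 in miR-181b and 1554 in control cells on array 2. Its ratios of −0.16 and −0.21 had a mean of −0.18 ± 0.04 (SD of 2 arrays, 1.13-fold lower). The other, A_51_P333060, had signals of 575 in miR-181b and 560 in control cells on array 1, and of 594 in miR-181b and 406 in control cells on array 2. Its ratios of 0.04 and 0.55 had a mean of 0.29, the single mean of the 27 probes at least 1.2-fold higher with the same sign on both arrays, against 5.74% of the 25787 measured probes of the array. The range between the means of both probes, 0.47, was the widest of the 10 genes.

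Tarbp2, the RNA-binding partner of Dicer1, had 1 probe, A_51_P111583. Its signals were 3459 in miR-181b and 3033 in control cells on array 1, and 3163 in miR-181b and 2925 in control cells on array 2. The miR-181b RNA was the brighter on both arrays, by 0.19 and 0.11 (mean 0.15 ± 0.05, SD of 2 arrays, 1.11-fold), and 82.6% of all genes had a lower mean. Over the 5 genes of processing and export the median ratio was 0.09 (0.01 on array 1 and 0.11 on array 2). Of these 5, 1 was lower on both arrays, 2 higher and 2 of opposite sign, against 27.4% lower and 24.5% higher over all genes.

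The 4 Argonautes had means below 0, from −0.27 to −0.04, and their median was −0.16 (array 1, −0.22, and array 2, −0.11). The median over all measured genes was also below 0, at −0.01. A mean no higher than that of Eif2c1, −0.04, was found in 39.3% of all measured genes. Of the 4, 2 were lower on both arrays, against 27.4% of all measured genes. Eif2c2 encodes Ago2, the one mammalian Argonaute known for cutting its targets efficiently and for its necessity in blood cell development. Its brightest probe, A_51_P180001, had signals of 2149 in miR-181b and 3035 in control cells on array 1, and of 2284 in miR-181b and 2357 in control cells on array 2. The miR-181b RNA was much the dimmer on array 1 (−0.50) and hardly dimmer on array 2 (−0.05). The mean of −0.27 ± 0.32 (SD of 2 arrays, 1.21-fold lower) was thus smaller than the spread between the arrays, although 5.1% of all genes had a lower mean. The other Eif2c2 probes had ratios of −0.22 and −0.03 (A_52_P101221) and of −0.05 and 0.28 (A_52_P101218).

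A probe outside the rule also bears on Ago2. A_51_P166107 carries the clone name 2310051F07Rik in the array's annotation, which RefSeq lists as an older name of Ago2, and it was noted after its values were seen. Its signals were 7866 in miR-181b and 9703 in control cells on array 1, and 7248 in miR-181b and 8713 in control cells on array 2. The miR-181b RNA was the dimmer on both arrays, with ratios of −0.30 and −0.27 (mean −0.28 ± 0.03, SD of 2 arrays, 1.22-fold lower). Unlike the brightest probe named Eif2c2, it gave nearly the same ratio on both arrays after loess. With each array centred on its median in place of loess, its ratios were −0.42 and −0.92. The brightest Eif2c2 probe then had −0.66 and −0.56, and the medians over all measured genes were −0.07 and −0.32. Among the 3 probes named Eif2c2, 2 were lower on both arrays, against 26.2% of all measured probes, and 1 had opposite signs. A_51_P166107 is not counted with them, since it was noted after its values were seen. Probes of the same gene are not independent.

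Eif2c4 (Ago4) came next among the Argonautes. Its brightest probe, A_52_P27117, had signals of 466 in miR-181b and 576 in control cells on array 1, and of 438 in miR-181b and 510 in control cells on array 2. The ratios of −0.31 and −0.22 had a mean of −0.26 ± 0.06 (SD of 2 arrays). At 1.199-fold lower it fell just short of 1.2-fold, with Eif2c2 just past it. A second probe, A_52_P8444, was also lower on both arrays (−0.22 and −0.33), as was A_52_P27122 (−0.11 and −0.05). By contrast, A_52_P525027 was higher on both (0.12 and 0.10) and A_52_P17422 had ratios of −0.04 and 0.08. Of the 5 Eif2c4 probes 3 were lower, 1 higher and 1 of opposite sign, against 26.2% lower and 23.8% higher over all measured probes.

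Eif2c1 (Ago1) had signals of 492 in miR-181b and 538 in control cells on array 1, and of 441 in miR-181b and 426 in control cells on array 2, by its brightest probe, A_52_P76402. The ratios of −0.13 and 0.05 had a mean of −0.04 ± 0.13 and so no direction. A_52_P313035 gave nearly the same ratios (−0.12 and 0.04). The remaining probe, A_52_P97489, was lower on both arrays (−0.29 and −0.20, mean −0.24).

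Eif2c3 (Ago3) had signals of 411 in miR-181b and 394 in control cells on array 1, and of 349 in miR-181b and 395 in control cells on array 2, by A_52_P126513. The ratios of 0.06 and −0.18 had a mean of −0.06 ± 0.17, also without direction. Of the other measured Eif2c3 probes, A_51_P113068 and A_52_P556266 were lower on both arrays (means −0.08 and −0.11) and A_52_P126521 was higher on both (mean 0.14). The fifth, A_52_P24793, was not well above background in either RNA. Ago3, Ago1 and Ago4 are neighbours on the mouse genome with no other gene between them in RefSeq. Of these 3 neighbouring genes, only Ago4 kept one sign on both arrays by its brightest probe. Over the 15 measured Argonaute probes, 8 were lower on both arrays, against 26.2% of all measured probes, and 2 higher, against 23.8%. The other 5 had opposite signs, and the median was −0.08. Probes of one gene share their target and are not replicates.

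Tnrc6a, the scaffold that links Argonautes to deadenylation, had signals of 3717 in miR-181b and 4180 in control cells on array 1, and of 3927 in miR-181b and 3856 in control cells on array 2, by A_51_P141136. The ratios of −0.17 and 0.03 had a mean of −0.07 ± 0.14. A second probe, A_51_P509229, had signals of 1125 in miR-181b and 1205 in control cells on array 1, and of 964 in miR-181b and 1335 in control cells on array 2. It was lower on both arrays (−0.10 and −0.47), and its mean of −0.28 was the lowest of the 27 probes. The third, A_51_P311379, had ratios of −0.19 and 0.16. Thus 1 of the 3 Tnrc6a probes had a direction and the brightest did not.

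**Figure D2:**
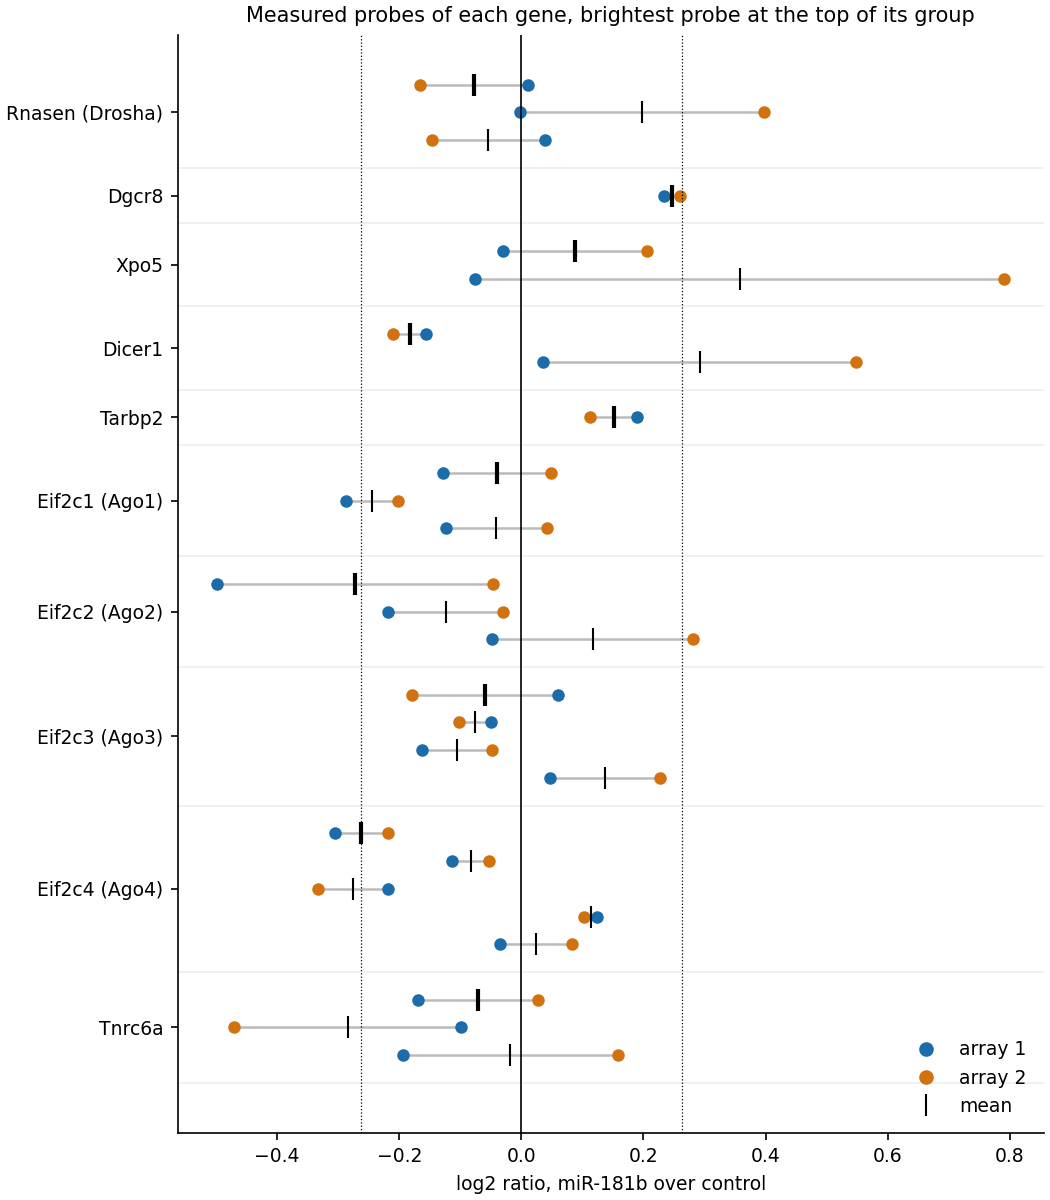
Log2 ratio of miR-181b over control for each of the 27 measured probes on array 1 (blue) and array 2 (orange), joined by a grey line, with the mean as a black tick (thick for the probe that represents the gene). Dotted lines stand at 1.2-fold. Probes of one gene fall on both sides of 0 for Rnasen, Dicer1, Eif2c2, Eif2c3 and Eif2c4, and the widest gap between arrays is that of the second Xpo5 probe.

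The probes of one gene agreed less than the brightest probe alone would show. Of the 10 genes, 8 had more than 1 measured probe. The range between the means of their probes was 0.20 to 0.47, with a median of 0.27, against a median of 0.14 over the 5747 genes of the array with more than 1 measured probe. In 5 of these 8 genes (62.5%) the probe means had both signs, against 41.7% of the 5747. Among the 5709 genes with 2 to 5 measured probes, as these 8 had, the median range was 0.14 and 41.4% had both signs. These 5709 were nearly all of the 5747 and were not matched to the 8 genes in number of probes per gene. A range can only widen as probes are added, so no conclusion is drawn from the difference. Counted over all 27 measured probes, 10 were lower on both arrays, against 26.2% of the 25787 measured probes of the array, 5 were higher, against 23.8%, and 12 had opposite signs. At least 1.2-fold lower with the same sign on both arrays were 3 probes, 1 each of Eif2c2, Eif2c4 and Tnrc6a, against 4.94% of all measured probes, and 1 probe was at least 1.2-fold higher, of Dicer1, against 5.74%. With the mean of all measured probes in place of the brightest, Dicer1 turned to 0.05 and Rnasen to 0.02, no gene was 1.2-fold lower, and the 4 Argonautes had means of −0.11 (Eif2c1), −0.09 (Eif2c2), −0.03 (Eif2c3) and −0.10 (Eif2c4).

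The probes are 60 bases long and shared no long run of sequence. The longest run of bases shared by 2 probes of one gene was 8 bases, and by probes of different genes of the machinery 11 bases. The GC content of the 32 probes ran from 26.7% to 55.0%, with a median of 38.3%, against 40.0% over all probes. The DNA match to the miR-181 seed, TGAATGT, was in 0 of the 32 probes, against 0.954% of all 41174. Its reverse complement, ACATTCA, was also in 0 of the 32, against 0.646%. These counts concern the probes alone and say nothing of the rest of the transcripts.

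**Figure D3:**
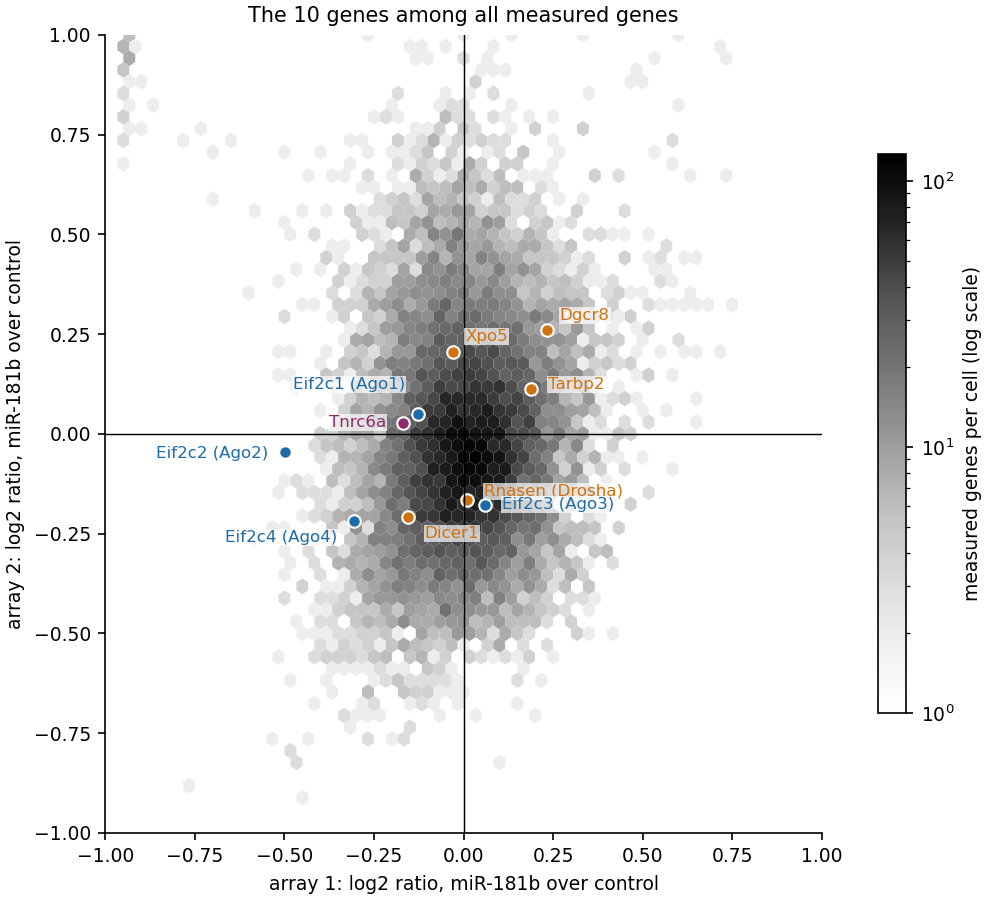
Log2 ratio of miR-181b over control on array 1 (x axis) against array 2 (y axis), with the number of measured genes per cell as grey shading on a log scale and the 10 genes as points (blue for Argonautes, orange for processing and export, purple for Tnrc6a). The axes end at 1 and leave out 248 of 17561 genes. Eif2c4, Dicer1 and Eif2c2 lie at the lower left, Dgcr8 and Tarbp2 at the upper right, and the other 5 in the quadrants of opposite sign.

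Other genes of the pathway were described from lists that had been drawn up by function, with earlier results of these data known. Of 26 partners in processing, which bind, edit, tail or degrade microRNA precursors, 24 were measured, and their median was −0.05 (array 1, −0.01, and array 2, −0.08). Of these 24, 7 were lower on both arrays, 6 higher and 11 of opposite sign, against 27.4% lower and 24.5% higher over all measured genes. At least 1.2-fold lower were 3 and higher 2, against 5.4% and 6.07%. Prkra, which encodes PACT, the other partner of Dicer1, had signals of 477 in miR-181b and 548 in control cells on array 1, and of 398 in miR-181b and 555 in control cells on array 2, with ratios of −0.20 and −0.48 (mean −0.34). The Prkra and Tarbp2 ratios thus had opposite signs. Hnrnpa1, an RNA-binding protein known to aid the processing of some precursors, had ratios of −0.04 and −0.61 (mean −0.32). Smad1, a signal transducer that binds the Drosha complex, had −0.24 and −0.35 (mean −0.30), although its second probe had a mean of 0.00.

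Srrt (Ars2), a partner of the nuclear cap-binding complex that aids microRNA processing, had the highest mean of both pathway lists. Its signals were 1162 in miR-181b and 1067 in control cells on array 1, and 1443 in miR-181b and 647 in control cells on array 2. The ratios of 0.12 and 1.16 had a mean of 0.64 (1.56-fold higher), and most of it came from array 2. It was the single gene of either list at 1.5-fold. The developmental regulators Lin28a and Lin28b, which block the maturation of let-7, were not measured.

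Of 39 silencing effectors and P-body proteins, which carry out repression after an Argonaute has bound, 37 were measured, and their median was 0.02 (array 1, −0.11, and array 2, 0.11). Of these 37, 10 were lower on both arrays, 5 higher and 22 of opposite sign, against the same 27.4% and 24.5%. At least 1.2-fold lower were 0 and higher 1, against 5.4% and 6.07%. The higher gene was Upf1, a helicase of nonsense-mediated decay, with ratios of 0.06 and 0.54 (mean 0.30). The others with the largest means of one sign were Dcp2, the decapping enzyme (−0.06 and −0.44, mean −0.25), Cnot8, a deadenylase subunit (0.06 and 0.39, mean 0.22), and Fxr1, an RNA-binding relative of Fmr1 (−0.15 and −0.22, mean −0.18). The paralogs of Tnrc6a were close to it, Tnrc6b at −0.06 and Tnrc6c at −0.08, and the 6 Tnrc6b probes ran from −0.36 to 0.23. Of the PIWI genes, the germ line relatives of the Argonautes, only Piwil2 of 3 was measured, with ratios of 0.05 and 0.23 (mean 0.14).

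**Figure D4:**
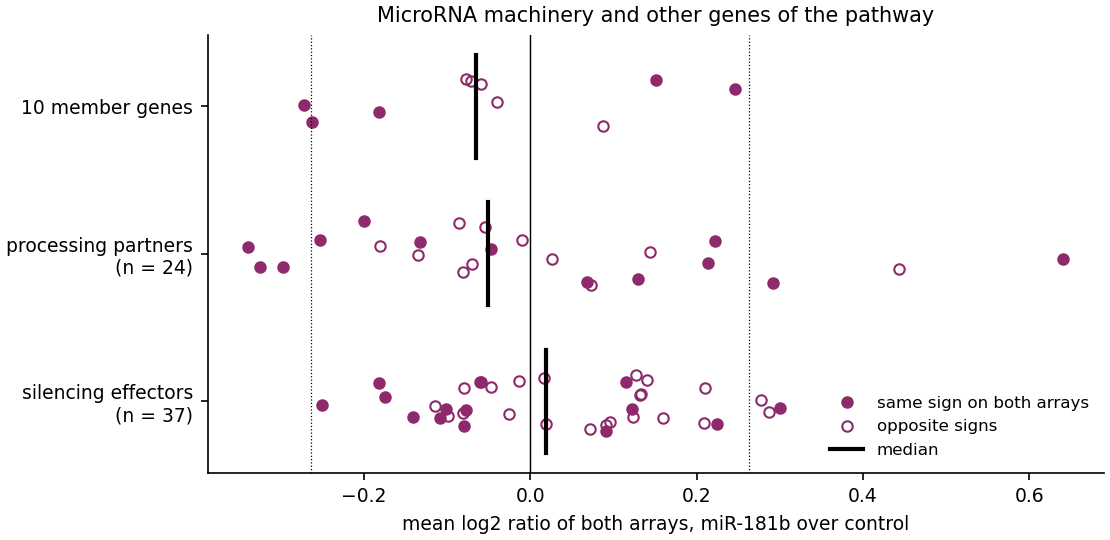
Mean log2 ratio of miR-181b over control of both arrays for the 10 genes of the machinery, 24 processing partners and 37 silencing effectors, each point a gene (filled where both arrays had the same sign, open where they did not) and the bar the median. Dotted lines stand at 1.2-fold. The medians of −0.07, −0.05 and 0.02 lie close to 0, and Srrt at 0.64 is the farthest point.

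Centring each array on its median in place of loess changed the level of all genes and not only of this set. The median over all measured genes was then −0.07 on array 1 and −0.32 on array 2, and −0.21 for the mean of both arrays. The median of the 10 genes was −0.35, or −0.15 relative to that −0.21. Relative to the measured-gene median of each array, Eif2c2, Eif2c4, Dicer1, Rnasen and Tnrc6a were lower on both arrays and Dgcr8 was higher on both. The share of all genes that did so was not counted, so no lean of the set is read from this. The values that follow are means of both arrays relative to the −0.21, where Dgcr8 stood at 0.26. Eif2c2 was then at −0.40, Dicer1 and Eif2c4 at −0.29 each, Rnasen at −0.26 and Tnrc6a at −0.23. Eif2c1 and Eif2c3 stood at −0.06 each, and Tarbp2 and Xpo5 at 0.01 each. Eif2c2, Eif2c4, Dicer1 and Dgcr8 thus kept the direction they had after loess, and Tarbp2 did not stand above all genes.

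**Figure D5:**
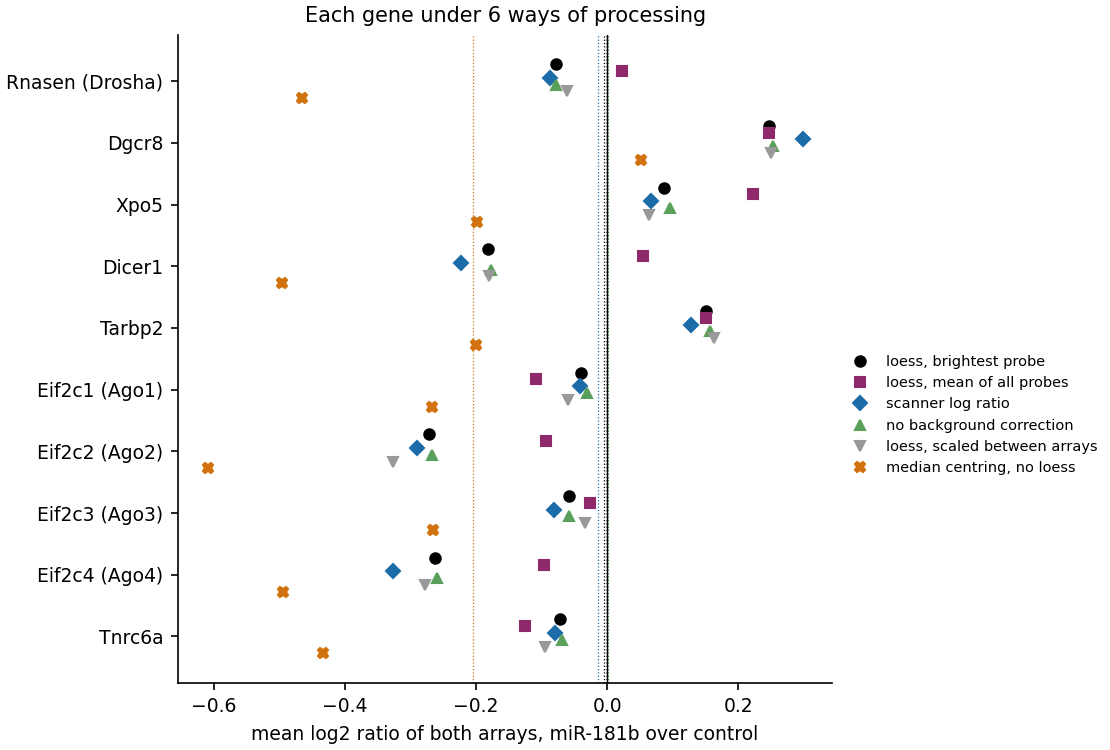
Mean log2 ratio of miR-181b over control of both arrays for each of the 10 genes under 6 ways of processing, with the median of all measured genes under each as a dotted line of the same colour. Under median centring without loess all points but Dgcr8 lie below 0, as does the median of all genes (−0.21), while the scanner's own ratio, no background correction and scaling between arrays stay near the values after loess.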

How the data were processed

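RNA of miR-181b and control B cells was hybridised to 2 two-colour Agilent arrays on 1 slide. The deposited scanner files came from Agilent Feature Extraction 9.1.3.1, per the file headers, and hold mean and local background intensity per spot, processed intensity, a log10 ratio of Cy5 over Cy3 and its p-value from an error model within an array (not used). The authors also deposited a log2 ratio table without probe names. Its values equalled the log2 ratio of the scanner's processed signals, with array 2 turned and constants of 0.0011 and 0.0327 added, for the 39900 of 41174 probes with a single match within 0.0001. The column medians were −0.0626 and −0.0704. The genome build behind the array's probes is not given in the sources used here, so no coordinates of the 10 genes or their probes are printed. Coordinates of microRNAs are RefSeq's own.

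Intensities were corrected by normexp (offset 50) and normalised by loess within each array in R 4.3.3 with limma 3.58.1, with control spots at weight 0. Outlier spots were left out (7 and 21), spots of a probe were averaged, and the sign of array 2 was turned. Genes were named through RefSeq by accession, symbol or synonym (22951, 6659 and 3109 probes) or kept the file's name (8455). Named genes were all 10 genes with every probe, and in each pathway list up to 4 genes with the largest mean of one sign on both arrays. The steps were tested on simulated data. Members, lists and marker sets were chosen with earlier results of these data known. The number of arrays limits the precision.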

Additional observations from a re-analysis of the deposited data

How the results depend on the processing

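No paired analysis was possible because both arrays carry the same pair of RNAs. The 10 gene values stayed within the spread between arrays without background correction, without the filter on dim probes, without saturated spots and, added after seeing the data, with both arrays scaled to the same spread. Aquantile leaves log ratios as they are. With median centring in place of loess the median ratio was −0.35, 8 genes were lower on both arrays, 0 higher and 7 at least 1.2-fold lower, against 55.3%, 9.02% and 36.1% of all genes. Xpo5 (−0.20) and Tarbp2 (−0.20) then turned sign, while the median of all genes was −0.21. The scanner's own ratio gave 5 genes lower on both arrays, 2 at least 1.2-fold lower and 1 higher, against 27.8%, 9.60% and 9.25% of all genes. The authors' deposited table, which is not independent of it, also gave 2 and 1, against 8.73% and 10.3%, and scaling between arrays gave 2 lower, against 4.96%. With the mean of all probes the median was −0.0019, 0 genes were at least 1.2-fold lower, against 4.21% of all genes, and Dicer1 (0.055) and Rnasen (0.022) turned sign. At 1.5-fold 0 genes were lower after loess. With median centring 1 was, Eif2c2 (−0.61), against 5.18% of all genes. With 1 array alone the median was between −0.079 and −0.0095, 5 to 6 genes were lower, 4 to 5 higher, and 0 to 2 at least 1.2-fold lower. The shares of all genes on a single array were not counted, so these counts are not read as a result about the set. Sign turned between single arrays for Eif2c1 (−0.13 to 0.049), Tnrc6a (−0.17 to 0.027), Eif2c3 (−0.18 to 0.061), Rnasen (−0.17 to 0.011) and Xpo5 (−0.03 to 0.21). Eif2c2, Eif2c4 and Dicer1 by their brightest probes stayed below 0, and Dgcr8 above 0, under each of these settings. With median centring that holds for Dgcr8 only as the mean of both arrays. Its ratios were then 0.14 on array 1 and −0.03 on array 2, with medians over all measured genes of −0.07 and −0.32. The causes were not tested. The probes were not placed in the proteins, since no protein sequences were at hand.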
